A study of Homo sapiens with 6 samples.

Results

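Beta tubulin, with alpha tubulin, forms the dimer from which microtubules are built, and human cells make it from several closely related genes called isotypes. These data follow 8 rows of a gene table of 38900 rows in 6 polyA RNA sequencing libraries of hTERT RPE1, an established human line from retinal pigment epithelium that telomerase made immortal. Of the 8 rows, 7 were chosen by their symbols, TUBB, TUBB2A, TUBB2B, TUBB3, TUBB4A, TUBB4B and TUBB6. The row ENSG00000227739 has no symbol in the name table used and was chosen by its values, because it is abundant and lower after treatment like the named isotypes. The members' difference between the groups is therefore given as a description, with errors and without p-values. Counts of members called in the fit are given below, and nothing is read from them.

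All cultures were held at full confluency for 5 days to make them quiescent and then put in fresh medium for 6 hours. In the DMSO group (3 libraries) the medium held 0.1% DMSO, the solvent. In the CA4 group (3 libraries) it held 100 nM combretastatin A4, a small molecule that depolymerises microtubules by binding beta tubulin where colchicine does. The labels do not say whether the 3 libraries of a group came from separate cultures, so the errors below measure the spread between these libraries, which may be technical.

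Cells adjust the amount of tubulin messenger RNA to the amount of tubulin dimer that is not in microtubules, a control known as tubulin autoregulation. As background, excess free dimer leads the factor TTC5 to bind the first residues of tubulin as it leaves the ribosome, and TTC5 acts with SCAPER and the CCR4-NOT deadenylase complex so that the messenger RNA is degraded. Drugs that free dimers from microtubules, colchicine among them, are known to lower tubulin messenger RNA in this way. TUBB and TUBB4B are made in most tissues, TUBB2A, TUBB2B, TUBB3 and TUBB4A are best known from neural tissue, and TUBB6 is a more divergent isotype with broad, usually low, expression.

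The coding start of each named isotype is printed first because it encodes the residues that autoregulation reads. Sequences are from the principal transcripts of GENCODE 29 on GRCh38, 30 bases from the start codon, with the 12 bases of the first 4 codons in capitals.
TUBB (chr6:30720507-30720536, + strand): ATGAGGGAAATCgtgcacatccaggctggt
TUBB4B (chr9:137241361-137241390, + strand): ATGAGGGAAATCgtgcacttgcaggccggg
TUBB3 (chr16:89923402-89923431, + strand): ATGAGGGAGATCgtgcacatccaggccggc
TUBB6 (chr18:12308293-12308322, + strand): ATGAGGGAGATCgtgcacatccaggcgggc
TUBB2A (chr6:3157434-3157463, - strand): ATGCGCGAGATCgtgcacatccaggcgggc
TUBB2B (chr6:3227514-3227543, - strand): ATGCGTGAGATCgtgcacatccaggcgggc
TUBB4A (chr19:6502183-6502212, - strand): ATGCGGGAGATCgtgcacctgcaggccggc
The 7 isotypes spelled the first 4 codons in 5 ways, all of which encode the same 4 residues, Met-Arg-Glu-Ile. TUBB and TUBB4B had the same 12 bases, and so did TUBB3 and TUBB6. Over the 30 bases TUBB3 and TUBB6 differed at 1 position and TUBB2A and TUBB2B also at 1, while TUBB4B differed from TUBB2A and from TUBB2B at 7, the most among the 21 pairs.

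The coding end is shown for the isotypes that stood furthest apart in their values and for the 2 that are nearly alike, because the isotypes differ most there. Each line is the last 60 coding bases with the stop codon in capitals.
TUBB3 (chr16:89935745-89935804, + strand): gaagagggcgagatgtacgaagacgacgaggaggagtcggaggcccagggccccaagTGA
TUBB6 (chr18:12326071-12326130, + strand): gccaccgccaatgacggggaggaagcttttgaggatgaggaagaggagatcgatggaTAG
TUBB2A (chr6:3153863-3153922, - strand): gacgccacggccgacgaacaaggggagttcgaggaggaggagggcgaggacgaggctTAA
TUBB2B (chr6:3224751-3224810, - strand): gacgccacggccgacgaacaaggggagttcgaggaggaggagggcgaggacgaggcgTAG
Across the 21 pairs of isotypes the identity of aligned coding sequences had a median of 86.4% and ran from 80.9% for TUBB and TUBB6 to 98.1% for TUBB2A and TUBB2B. Over the last 60 bases the median was 61.9%, and the range was from 43.1% for TUBB3 and TUBB6 to 96.7% for TUBB2A and TUBB2B. This likeness limits how reads can be assigned. Of the 50-base words in the transcripts of TUBB2A, 54.1% also occur in TUBB2B, and of those of TUBB2B 43.5% occur in TUBB2A. For TUBB, TUBB3, TUBB4A, TUBB4B and TUBB6, between 0% and 4.9% of the words occur in another named isotype. In any other annotated gene, the figure was 14.2% for TUBB, with 12.4% in TUBBP1, and 33.4% for TUBB3, all in ENSG00000198211. It was 5.2% for TUBB4A, 7.4% for TUBB4B and 0.4% for TUBB6. The sequence of ENSG00000227739 was not analysed here, so any words that it shares with TUBB are not counted.

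The libraries held between 19524936 and 22538004 recovered reads each. Values below are normalized counts, the authors' reads divided by 1 factor per library, so that 1 read was worth between 0.935 and 1.12. Of the 12 genes listed as markers of retinal pigment epithelium, KRT8 and KRT18 were abundant, with 8393 normalized counts or more in every library, and OTX2 and MITF were present, while RPE65 lay between 13.5 and 40.8, RLBP1 and TYRP1 stayed under 6 and TTR had no read. Of the 8 tested, 4 had a lower and 4 a higher CA4 level, with a median log2 fold change of 0.03. OTX2 alone passed in limma, lower in CA4 (log2 fold change -1.11, SE 0.16, limma adjusted p = 0.0158), with 3 at an unadjusted p under 0.05, 1 passing in edgeR and 3 in DESeq2. MITF was at -0.98 (SE 0.29) and KRT18 at 0.46 (SE 0.13), with limma adjusted p-values of 0.100 and 0.0849. Over all tested genes, 23% had an unadjusted p under 0.05. The 9 neuronal markers, listed because neurons also make TUBB3, summed to between 437 and 496 normalized counts in the DMSO libraries and between 576 and 648 in the CA4 libraries, opposite in direction to TUBB3. MAP2 held between 388 and 519 of that sum, 6 of the 9 had means under 10, and 0 of the 3 tested passed in limma, edgeR or DESeq2, with 1 at an unadjusted p under 0.05. Markers of dividing cells were not absent from these confluent cultures. The 6 listed (MKI67, TOP2A, CCNB1, CDK1, BUB1 and AURKB) had sums of 9925, 4804 and 4499 for DMSO replicates 1, 2 and 3, and of 8289, 4704 and 2501 for CA4 replicates 1, 2 and 3. Of the 6, 0 passed in limma, edgeR or DESeq2, and 0 had an unadjusted p under 0.05.

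The summed beta tubulin signal of the 8 rows in DMSO replicates 1, 2 and 3 was 67792, 48037 and 51737 normalized counts. In CA4 it was 17811, 17186 and 16140. The groups did not overlap, and the CA4 mean of 17046 ± 844 was 30.5% of the DMSO mean of 55855 ± 10501 (SD, n = 3 each), a log2 ratio of -1.71. As a share of all normalized counts, the 8 rows held 0.272% ± 0.053 with DMSO and 0.0773% ± 0.00507 with CA4 (SD, n = 3 each). In bulk RNA, fewer cells with a transcript and less of it in each cell cannot be told apart. DMSO replicate 1 was the highest of its group in all 8 rows, and it was also the library with the highest sum of markers of dividing cells. In CA4, replicate 1 was the highest in 5 of the 8 rows and again had the highest sum of those markers. The part of dividing cells in these values was not tested. Without DMSO replicate 1 the log2 ratio of the summed signal was -1.55.

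**Figure D1:**
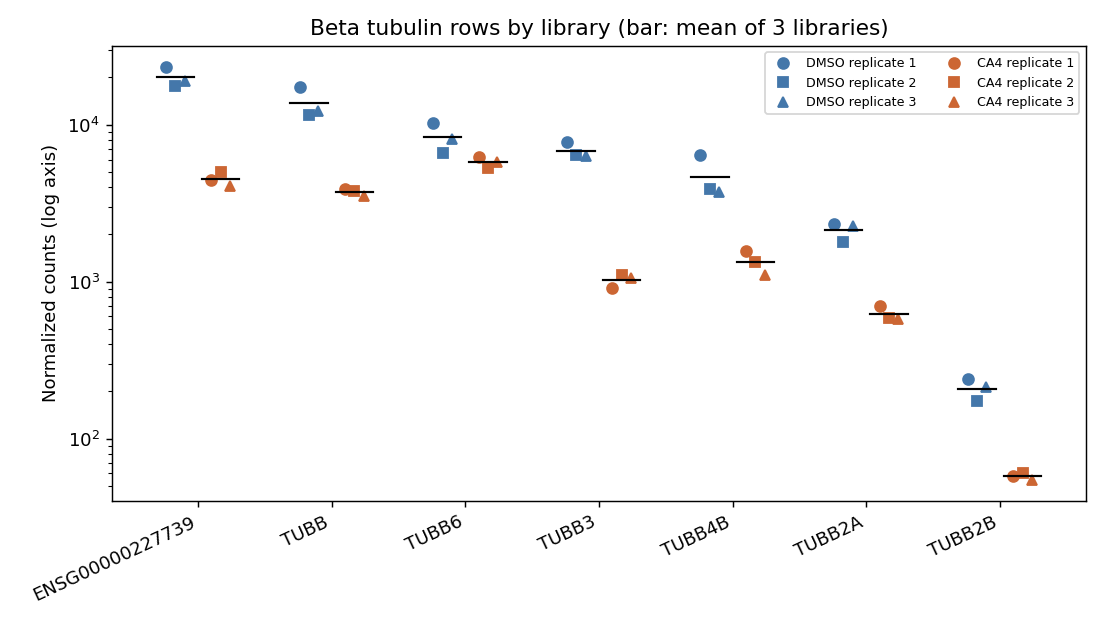
Normalized counts on a log axis of the 7 beta tubulin rows with a mean of at least 10, for each DMSO (blue) and CA4 (orange) library, with the mean of 3 libraries as a bar. In every row the 3 CA4 libraries sit below the 3 DMSO libraries, by a wide gap in TUBB3 and a narrow one in TUBB6.

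TUBB3, the isotype used as a marker of neurons, had the widest separation. Its DMSO libraries were at 7766, 6376 and 6324 normalized counts and its CA4 libraries at 917, 1105 and 1051. The lowest DMSO library was 5.72 times the highest CA4 library. The mean went from 6822 ± 818 to 1024 ± 96.8 (SD, n = 3 each), 6.66-fold lower. On the log2 scale this was -2.73 (SE 0.11). In GENCODE 29, 35.8% of the exon bases of TUBB3 (chr16:89921392-89938761) also belong to the read-through gene ENSG00000198211 on the same strand. That row held at most 5.79 normalized counts in any library, in DMSO replicate 1, or at most 0.0746% of its sum with TUBB3. The sum of both rows gave a log2 ratio of group means of -2.74.

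TUBB (chr6:30720201-30725426), the isotype with the most normalized counts among the named ones in DMSO, was at 17281, 11451 and 12253 in DMSO and at 3912, 3804 and 3487 in CA4. The lowest DMSO library was 2.93 times the highest CA4 library. The CA4 mean was 27.3% of the DMSO mean, and the log2 fold change was -1.85 (SE 0.15). The spread was uneven between groups, with a coefficient of variation of 23.1% in DMSO and 5.91% in CA4.

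TUBB4B (chr9:137241213-137243707), the other broadly expressed isotype and a component of cilia, was at 6392, 3872 and 3720 in DMSO and at 1561, 1331 and 1100 in CA4. DMSO replicate 1 stood apart from the other 2, and the groups did not overlap. The CA4 mean was 28.5% of the DMSO mean, with a log2 fold change of -1.78 (SE 0.22) that became -1.53 without DMSO replicate 1.

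TUBB2A (chr6:3153669-3157526) and TUBB2B (chr6:3224261-3231730) lie near each other on the same strand. TUBB2A was at 2318, 1793 and 2248 in DMSO and at 701, 590 and 575 in CA4, a log2 fold change of -1.76 (SE 0.13). TUBB2B was at 239, 173 and 213 in DMSO and at 58.0, 60.6 and 54.6 in CA4, a log2 fold change of -1.82 (SE 0.19). Neither row overlapped between groups, and the CA4 means were 29.3% and 27.7% of the DMSO means. TUBB2B held 8.92% ± 0.36 of the sum of the pair with DMSO and 8.54% ± 0.841 with CA4 (SD, n = 3 each), with overlapping libraries. Because of the shared sequence, the division between the 2 genes is less certain than their sum, which was 2328 ± 317 with DMSO and 680 ± 69.2 with CA4 (SD, n = 3 each).

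TUBB6 (chr18:12307669-12344320) had the smallest difference among the rows tested. It was at 10322, 6630 and 8071 in DMSO and at 6212, 5317 and 5802 in CA4. The groups did not overlap, but the lowest DMSO library was 1.07 times the highest CA4 library, so the gap was smaller than the spread inside each group. The mean went from 8341 ± 1861 to 5777 ± 448 (SD, n = 3 each), 69.3% of the DMSO level, and the log2 fold change of -0.51 (SE 0.16) ran from -0.66 to -0.34 as each library was left out, the latter without DMSO replicate 1. In GENCODE 29, 20.3% of the exon bases of TUBB6 overlap AFG3L2, a mitochondrial protease gene on the opposite strand, and whether the counting used strand is not given in the sources used here. AFG3L2 lay between 1015 and 1361 in every library and overlapped between groups, at a log2 difference of 0.08 (SE 0.12) and a limma adjusted p of 0.754.

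TUBB4A (chr19:6494319-6502848), best known from brain, was close to the limit of detection. It had 31, 5 and 4 recovered reads in DMSO and 12, 0 and 0 in CA4, where a count of 0 allows up to 3 reads. Replicate 1 held most of its reads in both groups. With a mean of 8.33 normalized counts it did not reach the mean of 10 required for the fit, and no fold change is given.

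ENSG00000227739 had the highest mean of the 8 rows over the 6 libraries. It was the highest in every DMSO library, while TUBB6 was higher in every CA4 library. By mean, ENSG00000227739 ranked 214 among all 38900 rows and 3 among the 8927 rows without a symbol. It was at 23444, 17737 and 18903 normalized counts in DMSO and at 4439, 4978 and 4069 in CA4. The lowest DMSO library was 3.56 times the highest CA4 library, the CA4 mean was 22.4% of the DMSO mean, and the log2 fold change was -2.15 (SE 0.13), between those of TUBB and TUBB3. Its sequence was not analysed here, so the row is called by its ID, and its likeness to TUBB rests on the values it was chosen on. Whether it is a copy of TUBB, with the reads of 1 gene divided between the 2 rows, was not tested. The level, share and place in the order given for TUBB are those of its own row, and the level and share of both rows merged are also given. Of the sum of TUBB and this row, ENSG00000227739 held 57.6%, 60.8% and 60.7% with DMSO and 53.2%, 56.7% and 53.8% with CA4. The mean was 59.7% ± 1.82 with DMSO and 54.6% ± 1.87 with CA4 (SD, n = 3 each), and every CA4 library lay below every DMSO library. Added up, the 2 rows gave 33690 ± 6172 under DMSO and 8230 ± 622 under CA4 (SD, n = 3 each). The log2 ratio of these group means was -2.03. The log2 fold change of -1.85 for TUBB alone is a difference of mean log2 values, so the 2 are not the same measure.

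Of the 8 rows, 7 reached the mean of 10 normalized counts, and all 7 had a CA4 mean above it as well. In the fit over 13928 genes, 6 of the 7 were called lower at a limma adjusted p under 0.05, where 1.97% of all tested genes were called lower and 2.97% higher. All 7 had their CA4 libraries below their DMSO libraries, as did 13.4% of all tested genes, while 14.3% had all CA4 libraries above all DMSO libraries. The count called was 5 without the variance trend and 7 with the replicate block or with DESeq2. The contrast helped choose the rows, so nothing is read from these counts. The median log2 fold change was -1.82 over the 7 rows and -0.01 over all tested genes. TUBB, TUBB2A, TUBB2B and TUBB4B lay close together between -1.85 and -1.76, within their standard errors, while TUBB3 and ENSG00000227739 lay lower and TUBB6 higher. Of the 2 pairs with the same first 12 coding bases, TUBB and TUBB4B lay close together at -1.85 and -1.78, while TUBB3 and TUBB6 held the largest and the smallest difference. All 7 named isotypes encode the same first 4 residues, so this pairing by bases says nothing about those residues.

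The make-up of the beta tubulin signal differed between the groups mainly through TUBB6. Its share of the summed normalized counts was 15.2%, 13.8% and 15.6% in DMSO and 34.9%, 30.9% and 36.0% in CA4, so that the means were 14.9% ± 0.949 and 33.9% ± 2.64 (SD, n = 3 each). TUBB3 held 11.5%, 13.3% and 12.2% in DMSO and 5.15%, 6.43% and 6.51% in CA4. ENSG00000227739 went from 36.0% ± 1.25 to 26.4% ± 2.26 and TUBB from 24.3% ± 1.00 to 21.9% ± 0.268 (SD, n = 3 each), both without overlap between the groups. The shares of TUBB4B, at 8.23% ± 1.13 and 7.77% ± 0.974, TUBB2A, at 3.83% ± 0.471 and 3.64% ± 0.26, and TUBB2B, at 0.374% ± 0.0321 and 0.339% ± 0.0135, overlapped between DMSO and CA4 (SD, n = 3 each). For TUBB2B the overlap was narrow, 0.3525% in the highest CA4 library against 0.3519% in the lowest DMSO library. Its CA4 libraries all lay below its DMSO libraries when values were divided by length or when ENSG00000227739 was left out of the sum. TUBB4A held at most 0.0651% in any library. Shares add up to a whole, so the larger share of TUBB6 in CA4 goes with a level of TUBB6 that was itself lower, but less far below DMSO than the other rows.

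**Figure D2:**
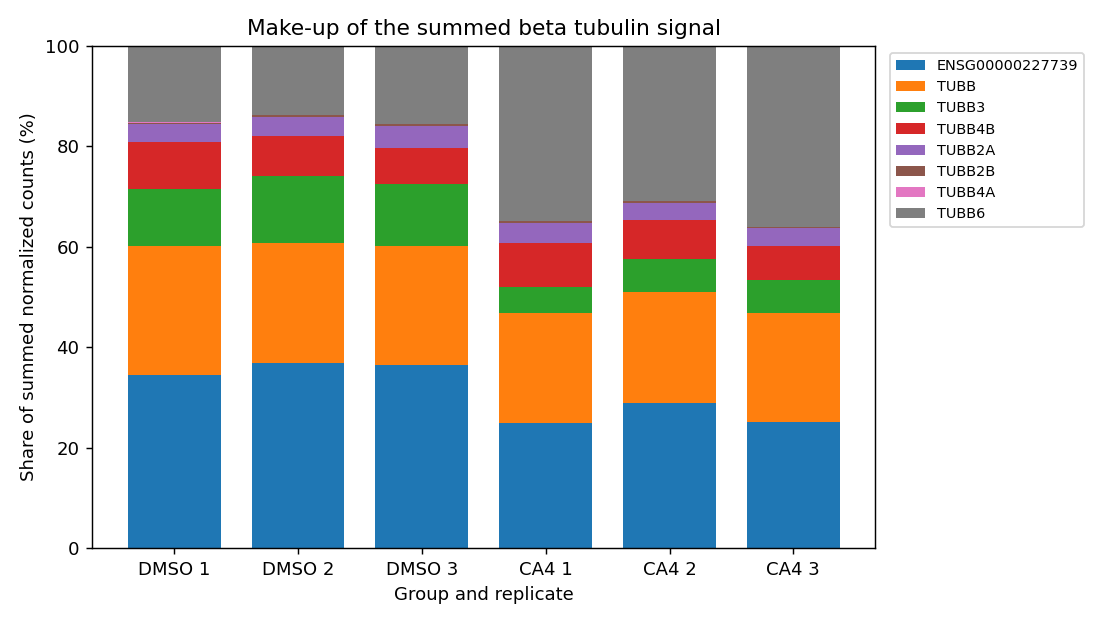
Share of each row in the summed beta tubulin normalized counts of each library, in percent. The grey part at the top, TUBB6, is between 13.8% and 15.6% in the DMSO libraries and between 30.9% and 36.0% in the CA4 libraries.

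With ENSG00000227739 left out of the sum, TUBB6 held 23.2% ± 1.35 in DMSO and 46.0% ± 2.29 in CA4, TUBB 38.0% ± 0.848 and 29.8% ± 1.22, and TUBB3 19.3% ± 1.77 and 8.21% ± 1.18 (SD, n = 3 each). Of the difference between the group means of the summed signal, ENSG00000227739 made up 40.0%, TUBB 25.6%, TUBB3 14.9%, TUBB4B 8.58%, TUBB6 6.61% and TUBB2A 3.86%.

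To compare levels between isotypes, normalized counts were divided by the length of the principal transcript, which runs from 1595 bases for TUBB2A to 2670 for TUBB. ENSG00000227739 was left out of this order because its own transcript length was not analysed here. Per kilobase, the DMSO means were 5117 ± 1183 for TUBB, 4041 ± 901 for TUBB6, 3856 ± 462 for TUBB3, 2848 ± 917 for TUBB4B, 1329 ± 179 for TUBB2A, 103 ± 16.4 for TUBB2B and 5.02 ± 5.82 for TUBB4A (SD, n = 3 each). Neighbours from TUBB down to TUBB4B overlapped in their library ranges, and TUBB3 was above TUBB6 in DMSO replicate 2. TUBB4B, TUBB2A, TUBB2B and TUBB4A followed each other without overlap. In CA4 the order was TUBB6 at 2799 ± 217, TUBB at 1399 ± 82.7, TUBB4B at 813 ± 141, TUBB3 at 579 ± 54.7, TUBB2A at 390 ± 43.0, TUBB2B at 28.6 ± 1.48 and TUBB4A at 1.51 ± 2.62 per kilobase (SD, n = 3 each), with no overlap between neighbours. TUBB6 thus came first in each CA4 library, and TUBB in each DMSO library. TUBB and ENSG00000227739 merged would hold the largest share in both groups, at 60.4% ± 0.362 of the summed normalized counts with DMSO and 48.3% ± 2.45 with CA4 (SD, n = 3 each).

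**Figure D3:**
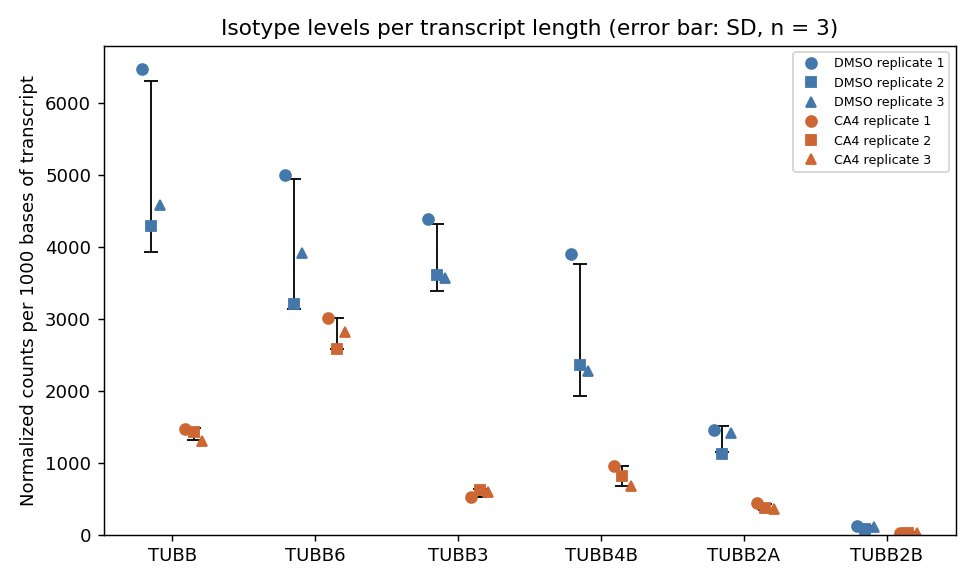
Normalized counts per kilobase of principal transcript for 6 named isotypes in each DMSO (blue) and CA4 (orange) library, with the SD of 3 libraries as an error bar around the mean. Among these 6, TUBB leads in DMSO at 5117 and TUBB6 leads in CA4 at 2799. ENSG00000227739 is not shown and is not merged with TUBB here.

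The other rows of the table with a TUBB symbol, 38 beta tubulin genes and pseudogenes, held almost no reads. None had a mean of 10 normalized counts, 26 had no read in any library, and the highest mean was 4.49, of TUBB1, the isotype of platelets. Their sum was between 6.5 and 17.4 normalized counts in a library.

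The genes most like the members were sought among 9194 other genes with a mean of at least 200, by the Pearson correlation of log2 values with the log2 summed signal over the 6 libraries. The 8 highest were STIMATE, TUBG1, TUBA1B, PARP9, HACD3, LPCAT3, PKIA and PRADC1, with r from 0.997 down to 0.987. A correlation over 6 libraries in 2 groups is set mostly by the difference between the groups and is a description only. It takes no account of size, since the log2 fold change was -0.24 in STIMATE and -1.96 in TUBA1B. TUBG1, gamma tubulin of the microtubule nucleating complex, and TUBA1B, an alpha tubulin, are the 2 tubulins among the 8. TUBA1B was at 23173, 14209 and 14651 normalized counts in DMSO and at 5140, 4361 and 3651 in CA4, so that, as in TUBB and TUBB4B, replicate 1 was the highest of each group.

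The other genes of the tubulin pathway were not used to choose the members and were tested in the same fit. Among 10 alpha tubulin genes, the partners of beta tubulin in the dimer, 5 were tested and 4 fell, TUBA1A, TUBA1B, TUBA1C and TUBA4A, with log2 fold changes of -2.66 (SE 0.18), -1.96 (SE 0.21), -1.56 (SE 0.28) and -0.88 (SE 0.18) and limma adjusted p-values of 0.00154, 0.00601, 0.0274 and 0.0356. The share of all tested genes called in either direction was 4.94%. TUBA1C lost its call in 4 and TUBA4A in 6 of the 6 fits without a library, while TUBA1A and TUBA1B kept theirs in all 6. Without the variance trend TUBA1C and TUBA4A also lost theirs. The fifth tested gene, TUBA8, had between 0 and 35.7 normalized counts and overlapped between groups. The alpha tubulin genes added up to 40098 ± 8329 normalized counts with DMSO and 9245 ± 1395 with CA4. The ratio of summed beta to summed alpha tubulin was 1.40 ± 0.0424 with DMSO and 1.87 ± 0.219 with CA4 (SD, n = 3 each), without overlap.

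Of the 4 gamma, delta and epsilon tubulins, which serve microtubule nucleation and centrioles, TUBG1 alone passed in limma, and it fell, with 1 passing in edgeR and 2 in DESeq2. Its means were 980 ± 112 and 544 ± 37.4 (SD, n = 3 each), and its limma adjusted p was 0.0135 at a log2 difference of -0.84 (SE 0.12). Leaving out DMSO replicate 3, CA4 replicate 3 or the variance trend ended the call. TUBG2, TUBD1 and TUBE1 did not pass, at -0.48 (SE 0.13), -0.84 (SE 0.25) and 0.49 (SE 0.16), with limma adjusted p-values of 0.0801, 0.102 and 0.118. All 4 had an unadjusted p under 0.05, as did 23% of all tested genes.

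Of the 24 folding genes, the tubulin cofactors, the CCT chaperonin, prefoldin and phosducin-like helpers, 23 were tested and 0 passed in limma, with 0 also in edgeR and in DESeq2. An unadjusted p under 0.05 was found for 2 of them. Their log2 fold changes lay between -0.19 and 0.35 with a median of 0.02, against -0.01 over all tested genes. Of the 13 autoregulation genes 0 passed in limma, with 2 at an unadjusted p under 0.05 and 0 in edgeR and in DESeq2. Their median was -0.01 and their range from -0.34 to 0.38. TTC5, which binds nascent tubulin, was at 385, 352 and 468 normalized counts in DMSO and at 429, 461 and 341 in CA4 (log2 fold change 0.03, SE 0.16, limma adjusted p = 0.941). SCAPER, its partner, was at 209, 245 and 219 in DMSO and at 177, 292 and 107 in CA4 (log2 fold change -0.34, SE 0.33, limma adjusted p = 0.591). Both overlapped between groups, and a p above the threshold does not show that they were equal.

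**Figure D4:**
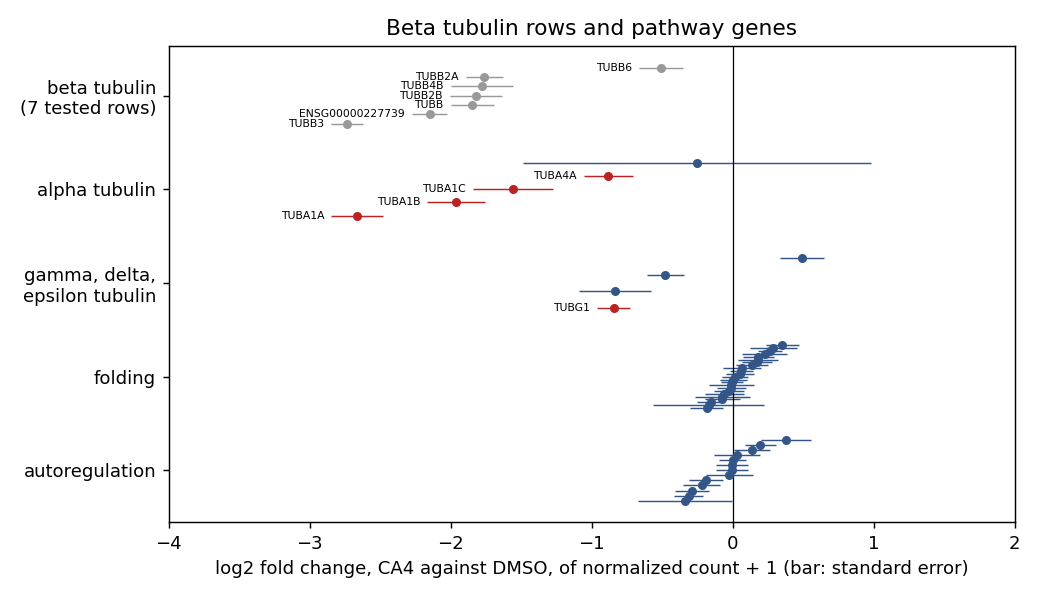
Log2 fold change of CA4 against DMSO with its standard error for the 7 tested beta tubulin rows (grey, described without p-values) and the tested genes of 4 pathway lists, in red where the limma adjusted p is under 0.05 and in blue otherwise. Beta and alpha tubulins reach below -2, while the folding genes stay between -0.19 and 0.35 and the autoregulation genes between -0.34 and 0.38.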

How the data were processed

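The authors deposited 1 table of normalized counts, a signal in which, per the file headers, each library has its own column. Per the submitters' processing notes, Trim Galore 0.6.6, FastQC 0.12.1, Salmon 1.8.0, STAR 2.7.9a, DESeq2 1.44.0 and GRCh38 were used. The annotation release and the use of strand are not given in the sources used here. In each column 100% of the values were whole multiples of its smallest value within 0.01, which gave recovered reads, on which edgeR called 643 genes. Whether these were rounded estimates is not given in the sources used here. Relative to the level, error from counting is smallest for the rows with most reads. The limit of 3 reads given for a count of 0 covers counting error only.

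Groups and replicate numbers came from the sample titles. Genes with a mean of at least 10 entered as log2(normalized count + 1), a scale that understates changes of low genes, and were fitted in limma 3.58.1 (R 4.3.3) with treatment as the only term, empirical Bayes with a mean trend, and Benjamini-Hochberg adjustment over all 13928 genes at 0.05. The test is two-sided. Symbols came from the supplied name table (all 7 symbols matched), sequences from GENCODE 29, aligned with Biopython 1.88. The members and gene lists were chosen with earlier results of these data known. Named are all members, called list genes, TTC5, SCAPER and the 8 most alike genes; any other gene was named after its values were seen. Alternatives were pseudocounts of 0.1 and 5, no filter and a mean of 50, 3 other scalings, no trend, a robust prior, the replicate number as a block, edgeR 4.0.16 and DESeq2 1.42.0 on recovered reads, and leaving out each library. The limma fit with and without the replicate block, edgeR and DESeq2 were also run on simulated data with 200 changed genes. The outcome is not given, and nothing is read from it here.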

Additional observations from a re-analysis of the deposited data

How the results depend on the processing

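Of the alternatives run, none reversed the log2 fold change of any of the 7 tested beta tubulin rows, and each value moved by less than the spread between libraries. For TUBB4A, too low to enter the fit, no alternative fold change was run. Leaving out each library in turn gave from 81 (without DMSO replicate 3) to 994 (without DMSO replicate 1) genes called against 688, from 2 to 3 alpha tubulins against 4, from 0 to 1 gamma, delta and epsilon tubulins against 1, and from 0 to 1 autoregulation genes against 0, the 1 being CNOT7 without DMSO replicate 1. The total was 100 when DMSO replicate 2 was left out, 156 for CA4 replicate 1 and 150 for CA4 replicate 3. Without the variance trend 103 genes, 2 alpha tubulins and 0 of the gamma, delta and epsilon tubulins were called. DESeq2 called 1613 genes (907 higher and 706 lower) and 2 of the gamma, delta and epsilon tubulins. Scaling to the same total shifted the median over all genes from -0.01 to -0.11 (log2), turned the split from 413 higher and 275 lower to 279 higher and 523 lower, and called 2 of the gamma, delta and epsilon tubulins. With the replicate block the count was 2397 genes, 3 of the gamma, delta and epsilon tubulins, 3 folding genes and 1 autoregulation gene. Correlations of deviations between same-numbered libraries were 0.202, 0.159 and 0.059, not all above 0.1, so the libraries were not treated as paired. Replicates 1 and 2 correlated best with their own number and replicate 3 did not. The cause of these moves was not tested, beyond the fewer libraries in the fits without one.

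The log2 ratio of the summed beta tubulin signal was -1.71, from -1.81 to -1.55 without 1 library, and -1.51 without ENSG00000227739. The shares depended on what was summed. The change in share in percentage points, CA4 minus DMSO, was 19.0 for TUBB6 and 22.8 without ENSG00000227739, -6.29 for TUBB3 against -11.1 without that row and -8.13 per length, where ENSG00000227739 was given the length of TUBB, and -2.44 for TUBB against -8.26. Without ENSG00000227739 it was -2.28 for TUBB4B, -1.05 for TUBB2A and -0.125 for TUBB2B, the last against -0.0355 with it, which became -0.0171 without DMSO replicate 3. With that row, for TUBB2A it was -0.19 and ran from -0.395 to 0.0678 without 1 library, the reversal being without DMSO replicate 3. For TUBB4B it was -0.45, ran from -0.971 to 0.148 without 1 library, and reversed to 0.148 without DMSO replicate 1 and to 0.0259 without CA4 replicate 3. For TUBB4A the change of 0.0013 was within noise, with -0.0026 without ENSG00000227739, -0.004 and -0.0052 without DMSO replicates 2 and 3 and a range from -0.0204 (without CA4 replicate 1) to 0.0132 without 1 library.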
